A study of Sus scrofa with 6 samples.

Results

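The chaperonin CCT, also called TRiC, is a chamber of the cytosol in which newly made proteins fold with the energy of ATP. It consists of a pair of stacked rings, each built from 8 related subunits, *TCP1* and *CCT2*, *CCT3*, *CCT4*, *CCT5*, *CCT6A*, *CCT7* and *CCT8*, at 1 copy of each per ring. Actin and tubulin are its best known substrates, and it also folds proteins with WD40 propellers. In zebrafish muscle its subunits are needed for the assembly of myofibrils. The 8 subunit genes were looked up by their pig Ensembl symbols, and 7 of them were found among the 30476 genes counted. *CCT6A* was found under no identifier by its symbol and was not analysed here, so all statements below cover the other 7 subunits.

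Expression was measured by RNA-seq in a back muscle, the longissimus dorsi, of 3 UCP1 KI pigs and 3 WT pigs, all 6 months of age, with 1 library per pig. The pigs are called KI1 to KI3 and WT1 to WT3 after their replicate numbers. UCP1 KI pigs carry a knocked-in *UCP1*, the uncoupling protein of brown fat, whose expression is restricted to adipocytes, and the study asked how this alters skeletal muscle. Sex, litter and the promoter of the knock-in were not given in the sources used here. The labels and the study's methods name no treatment of either group, although captions in the study mention cold exposure. The study's results assign the genes of such a caption to UCP1 KI. Its discussion leaves cold acclimation of UCP1 KI pigs to later work, and the paper states no housing temperature. With 3 pigs per group, the tests measure the spread between these 6 animals.

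The counts on genes summed to between 30220951 and 35066624 per pig, and 13402 genes were tested. WT2 stood apart, with 56.5% of its counts in its 20 most abundant genes, against 39.0% to 44.8% in the other pigs. Levels are given as counts per 1000000 (CPM) after TMM scaling, and "called" means that the log2 fold change exceeded 0.5 in size with p under 0.05 before adjustment. Muscle fibre genes were abundant in every pig, with *ACTA1* between 30309 and 55971 CPM, while *MYH1*, *MYH2*, *MYH7*, *MB* and *RYR1* were found under no identifier by symbol. The summed markers of other cell types did not overlap between the groups for 2 lists. The 5 fibroblast markers, 3 of them called lower, summed to 199 to 367 CPM in KI pigs against 578 to 927 CPM in WT pigs. The 4 red blood cell markers, 1 of them called lower, summed to 11.6 to 76.5 CPM against 106 to 181 CPM, and *AHSP* was at 0 in KI2. The sums of the muscle fibre, satellite cell, cell division, adipocyte, leukocyte, endothelial, smooth muscle and Schwann cell markers overlapped between the groups. In these lists *CD3E*, of T cells, was called higher at a log2 fold change of 1.84, and the endothelial receptor *TEK* was called higher, at 38.3 to 50.6 CPM in KI pigs against 16.3 to 23.4 CPM in WT pigs. All 5 leukocyte and all 4 endothelial markers tested had a log2 fold change above 0, and all 4 adipocyte and all 4 smooth muscle markers tested one below 0, with medians of 0.50, 0.27, -1.18 and -0.90. WT2 was highest for adipocyte markers, at 282 CPM against at most 87.3 CPM. KI2 had the lowest sums of muscle fibre, fibroblast and red blood cell markers and the highest of leukocyte, endothelial and cell division markers. Of the fibre markers, *TNNT3* was at 4144 CPM in KI2 against at least 11937 CPM in the other pigs. *CKM* and *CASQ1* were also lowest in KI2, *ACTA1* was lowest in KI3, and *DES* was highest in KI2. In such bulk samples, fewer cells of a type and less RNA per cell cannot be told apart, and the part of these shifts in the results below was not tested.

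All 7 CCT subunits had a higher mean in KI pigs, and 2 of them, *CCT8* and *CCT3*, were called higher. A log2 fold change above 0 was found in 48.7% of all genes tested, and 3.84% of them were called higher. The median log2 fold change of the 7 subunits was 0.49, beside -0.02 for all genes tested. No subunit had a Benjamini-Hochberg adjusted p under 0.05 from the quasi-likelihood test of edgeR, which held for all 13402 genes, while 2 subunits and 1100 genes had an unadjusted p under 0.05. DESeq2 on the same genes called the same 2 subunits, beside 4.40% of all genes called higher and 9.77% called in either direction by that tool, and gave 1 of them, *CCT8*, an adjusted p of 0.0371, one of 127 genes under the adjusted limit with that tool. Summed over the 7 subunits, the level was 728, 864 and 626 CPM in KI1 to KI3 and 397, 465 and 584 CPM in WT1 to WT3. The 3 KI pigs therefore lay above the 3 WT pigs, with a ratio of the means of 1.53, although KI3 and WT3 lay close together.

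**Figure D1:**
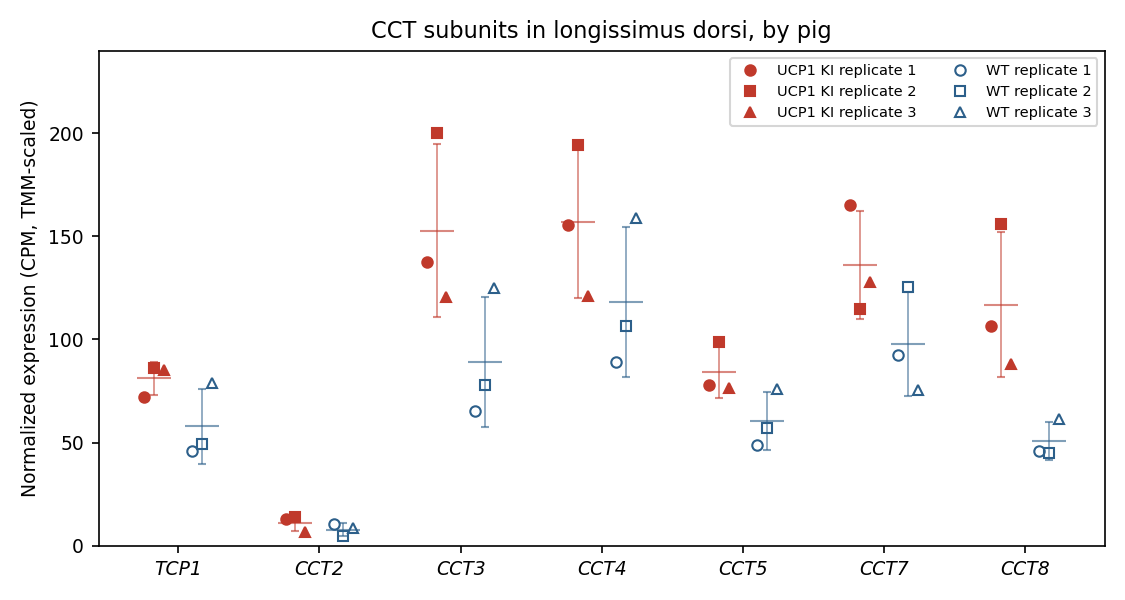
Level of each CCT subunit (y axis, CPM) in each pig, with filled red symbols for KI pigs and open blue symbols for WT pigs; the horizontal bar is the mean and the error bar the SD of 3 pigs. The groups are separate for *CCT5* and *CCT8* and overlap for the other 5 subunits.

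*TCP1*, *CCT3*, *CCT6A* and *CCT8* lie next to each other in the ring, on the side that binds ATP weakly. *CCT8* (ENSSSCG00000026761, chr13:192407831-192423466 in Sscrofa11.1) had the largest difference of the 7 subunits. In KI1 to KI3 it was at 107, 156 and 88.2 CPM, and in WT1 to WT3 at 45.9, 44.8 and 61.2 CPM. The lowest KI pig thus lay above the highest WT pig, a separation that 7.59% of all genes tested showed in this direction. The KI mean was 117 ± 35.0 CPM (SD, n = 3) and the WT mean 50.6 ± 9.17 CPM (SD, n = 3), a 2.31-fold difference. Its log2 fold change was 1.21 (standard error 0.29, 95% interval 0.53 to 1.88), with an unadjusted p of 0.00348 and an adjusted p of 0.544 from the quasi-likelihood test of edgeR. *CCT8* passed both limits with each pig left out in turn, with a log2 fold change between 0.94 and 1.37.

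*CCT3* (ENSSSCG00000006487, chr4:93733967-93753340) was the other subunit past both limits. Its level was 138, 200 and 120 CPM in KI1 to KI3 and 65.1, 77.8 and 125 CPM in WT1 to WT3. WT3 lay above KI3, so the groups overlapped. The means of 153 ± 42.1 CPM (SD, n = 3) and 89.2 ± 31.5 CPM (SD, n = 3) gave a log2 fold change of 0.78 (standard error 0.33, 95% interval 0.0024 to 1.55). The unadjusted p from the quasi-likelihood test of edgeR was 0.0494, just under the limit, and the adjusted p was 0.608. *CCT3* was no longer past the p limit in the fits that left out KI1 (0.85), KI2 (0.53), WT1 (0.59) or WT2 (0.68), nor with the replicate number as a block (0.80) or with median-of-ratios factors (0.77), and it passed without KI3 (0.92) and without WT3 (1.10). Its annotated span overlaps that of *TSACC*, a gene that was too low to be tested, and the strand setting of the counting was not given in the sources used here.

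*TCP1* (ENSSSCG00000004048, chr1:7590140-7600709), the first subunit to be described and the one that gave the family its name, was at 72.0, 86.4 and 85.1 CPM in KI1 to KI3. In WT1 to WT3 it was at 45.8, 49.1 and 78.7 CPM. The KI pigs lay close together, with a coefficient of variation of 9.84%, whereas WT3 was well above the other WT pigs and above KI1. The log2 fold change of 0.49 (standard error 0.27, 95% interval -0.15 to 1.13) had an unadjusted p of 0.115 and an adjusted p of 0.664 from the quasi-likelihood test of edgeR. *TCP1* passed both limits at 0.78 without WT3 and did not pass with any other pig left out, with its lowest value, 0.34, without WT1. Its span overlaps *ACAT2*, and *MRPL18* lies 103 bp away, so reads of these genes could be shared with it. The log2 fold changes of *ACAT2* and *MRPL18* were 0.06 and 0.25, and neither was called.

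The other side of the ring, which binds ATP tightly, is formed by *CCT7*, *CCT5*, *CCT2* and *CCT4*. Of these, 0 of 4 subunits passed the limits, beside 8.19% of all genes called, and their log2 fold changes of 0.41 to 0.52 lay around that of *TCP1*. *CCT5* (ENSSSCG00000024126, chr16:72211452-72223202), in which a human variant causes a sensory neuropathy, was at 77.8, 98.6 and 76.4 CPM in KI1 to KI3 and at 48.7, 57.0 and 76.1 CPM in WT1 to WT3. The groups did not overlap, but KI3 exceeded WT3 by less than 1 CPM. Its log2 fold change was 0.48 (standard error 0.26, 95% interval -0.12 to 1.07), with an unadjusted p of 0.102 and an adjusted p of 0.653 from edgeR's test. *CCT5* passed both limits without WT3, at 0.68, and did not pass with any other pig left out, with 0.34 both without WT1 and without KI2.

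*CCT4* (ENSSSCG00000008377, chr3:79924338-79941926), which like *CCT5* can form rings on its own, had the smallest difference. It was at 155, 194 and 121 CPM in KI1 to KI3 and at 88.9, 107 and 159 CPM in WT1 to WT3, so that WT3 was second to KI2 alone. The log2 fold change was 0.41 (standard error 0.31, 95% interval -0.31 to 1.13), with an unadjusted p of 0.223 and an adjusted p of 0.734 from edgeR's test. *CCT4* passed in 0 of the 6 fits with a pig left out, in which its value lay between 0.22 without KI2 and 0.69 without WT3, with 0.24 without WT1.

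*CCT7* (ENSSSCG00000008303, chr3:69527238-69540489) showed another order of the pigs. It was at 165, 115 and 128 CPM in KI1 to KI3 and at 92.5, 125 and 75.7 CPM in WT1 to WT3. KI2, the highest pig for the other 6 subunits, was the lowest KI pig here, and WT3 was the lowest pig of all, whereas it was the highest WT pig for 5 of the other 6. The log2 fold change of 0.48 (standard error 0.28, 95% interval -0.17 to 1.12) was close to those of *TCP1* and *CCT5*, with an unadjusted p of 0.129 and an adjusted p of 0.679 from edgeR's test. With a pig left out it lay between 0.31 without KI1 and 0.69 without WT2.

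*CCT2* (ENSSSCG00000000496, chr5:33858514-33873596), also described as a receptor for aggregated proteins in autophagy, collected 123 to 490 counts per pig, against 1227 to 7143 for the other 6 subunits. It was at 13.2, 13.7 and 6.75 CPM in KI1 to KI3 and at 10.6, 4.49 and 8.38 CPM in WT1 to WT3. The pigs of each group differed widely, with the highest KI pig 2.03-fold above the lowest and the highest WT pig 2.36-fold above the lowest, and the groups overlapped. The log2 fold change of 0.52 (standard error 0.41, 95% interval -0.42 to 1.46) had an unadjusted p of 0.238 and an adjusted p of 0.746 from edgeR's test. With a pig left out, the value lay between 0.24 without WT2 and 0.81 without WT1. Counting error at 123 counts has a coefficient of variation of 9.02%, below the 42.2% between pigs that the common dispersion gives. Whether part of the *CCT2* reads was counted under another identifier was not tested, so its level, fold change and share are uncertain. Transcript lengths were not used here, so counts of different subunits do not compare their numbers of molecules.

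**Figure D2:**
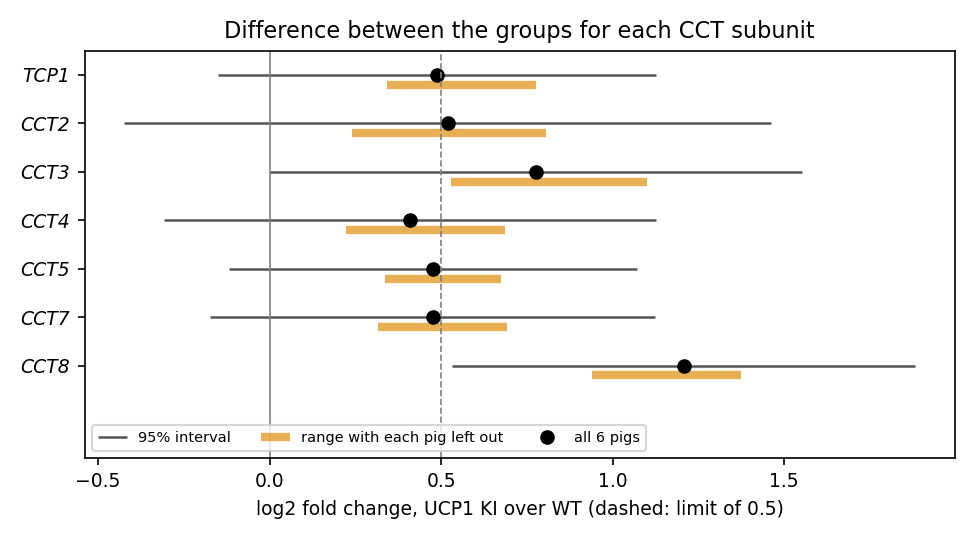
log2 fold change of each subunit, UCP1 KI over WT (x axis), with its 95% interval from the quasi-likelihood fit as a thin line and the range with each pig left out in turn as a thick bar. The intervals of *CCT3* and *CCT8* lie above 0, that of *CCT3* by 0.0024, and the left-out ranges lie above 0 for all 7 subunits.

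Across the 7 subunits, KI2 was the highest pig for 6 and KI1 for *CCT7*. The lowest pig was WT1 for 4 subunits, WT2 for *CCT2* and *CCT8*, and WT3 for *CCT7*. No KI pig was the lowest for any of the 7 and no WT pig the highest. With library size only as the scaling, the median over all genes moved from -0.02 to 0.24 and that of the 7 subunits to 0.75. This scaling called *TCP1*, *CCT5* and *CCT7* in addition to *CCT3* and *CCT8*. The share of all genes called under it was not computed, so this count has no such share beside it. The subunits exceeded the median of all genes by 0.50 with TMM scaling and by 0.51 with library size only.

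Since the ring takes 1 copy of each subunit, the makeup of the 7 transcripts was compared as each subunit's percentage of their summed CPM, a share of counts and not of molecules. *CCT8* held 14.6%, 18.0% and 14.1% of the sum in KI1 to KI3 and 11.5%, 9.64% and 10.5% in WT1 to WT3. Every KI pig was above every WT pig, with means of 15.6% ± 2.14 (SD, n = 3) and 10.6% ± 0.956 (SD, n = 3), a difference of 5.04 percentage points. *CCT5* moved within a narrow band, from 10.7% to 12.2% in KI pigs and from 12.3% to 13.0% in WT pigs. Its share was lower in every KI pig, but KI3 at 12.20% and WT2 at 12.25% lay close together. A larger *CCT8* share leaves less of the same sum to the other subunits, and the *CCT5* share without *CCT8* was not computed. Both shares had p = 0.1 from a two-sided exact permutation test, the smallest p that 3 pigs against 3 allow, and an adjusted p of 0.35 over the 7 shares. The design cannot reach p under 0.05 here. The shares of one sum are not independent, since they add up to the whole in each pig. *CCT3* also held a larger mean share in KI pigs, 20.4% against 18.2%, with overlapping groups, and the mean shares of the other 5 subunits were smaller.

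**Figure D3:**
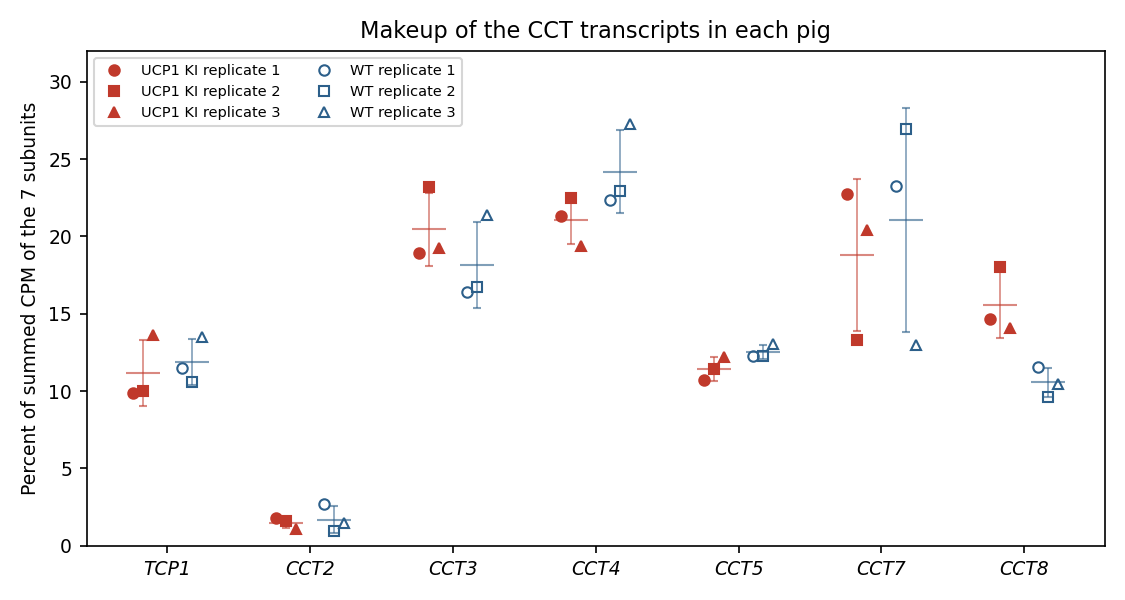
Percentage of the summed CPM of the 7 subunits that each subunit held (y axis) in each pig, with means and SD of 3 pigs. *CCT8* is separate between the groups upward. *CCT5* is separate downward by a narrow gap, 12.20% in KI3 against 12.25% in WT2. *CCT7* has the widest spread, from 13.0% to 26.9% in WT pigs.

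The share of *CCT8* was higher in KI pigs by 3.81 to 5.79 percentage points with each pig left out, and the lowest value was without KI2. The shares of *TCP1*, *CCT2*, *CCT3*, *CCT4* and *CCT7* overlapped between the groups, with exact permutation p values of 0.2 for *CCT4* to 0.9 for *CCT2*. *CCT7* was the most variable, at 22.7%, 13.3% and 20.4% in KI pigs and 23.3%, 26.9% and 13.0% in WT pigs. It held its smallest shares in KI2 and WT3, the pigs in which the summed level was highest within each group.

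The nearest protein-coding genes on either side of each subunit were examined by the same edgeR fit, a comparison chosen after the values of the subunits were seen. Beside *CCT8*, the deubiquitinase gene *USP16* lies 1357 bp away and was at 15.5 ± 3.30 CPM in KI pigs against 16.8 ± 1.07 CPM in WT pigs (SD, n = 3 each), with a log2 fold change of -0.12 (standard error 0.24). On the other side of *CCT8*, at 65471 bp, *MAP3K7CL* was higher in KI pigs, at 31.9 ± 13.8 against 10.8 ± 3.28 CPM (SD, n = 3 each), with a log2 fold change of 1.55, an unadjusted p of 0.00487 and an adjusted p of 0.583 from edgeR. Next to *CCT5*, at 6757 bp, the hydrolase gene *CMBL* was lower in KI pigs, at 30.9 ± 8.33 against 78.1 ± 27.0 CPM (SD, n = 3 each), a log2 fold change of -1.34 with an unadjusted p of 0.00507 and an adjusted p of 0.583. *GLMP*, 5599 bp from *CCT3*, was at 0.49 and did not pass the limits. Of 11 neighbours tested, these 2 were called, 1 higher and 1 lower, beside 8.19% of all genes called in either direction.

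The genes most like the subunits in their pattern over the 6 pigs were ranked by the root-mean-square difference between centred log2(CPM + 1) profiles, with the mean profile of the 7 subunits as the reference. Among 5682 genes with a symbol and a mean of at least 10 CPM, *SEC23IP*, of vesicle export from the endoplasmic reticulum, was nearest at 0.0714. It was followed by *CPSF4* (0.0837), *SSRP1* (0.0859), *HSF1* (0.0872), *ZNF444* (0.101), *RILPL1* (0.102), *TRMT2A* (0.106), *TTLL12* (0.108), *NSMCE1* (0.108) and *SYMPK* (0.109). Of the subunits, *CCT5* was nearest to their mean at 0.118, although it is part of that mean, and *CCT2* (0.377) and *CCT7* (0.408) were farthest. The ranking describes 6 pigs in 2 groups and carries no test.

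Lists of related genes are given beside the 8.19% of all genes tested that were called in either direction, and a count of 0 in a short list does not set it apart from that share. Prefoldin takes new actin and tubulin chains to CCT, and 0 of its 4 subunits tested were called, with a median log2 fold change of -0.13 and values from -0.23 for *PFDN4* to 0.18 for *PFDN1*. *PFDN2* and *PFDN6* were found under no identifier by symbol. Of the co-chaperones that bind CCT, *PDCL*, *PDCL3*, *TXNDC9* and *PDCD5*, 0 of 4 were called, and their median was -0.03. *PDCD5* had the largest difference, a log2 fold change of -0.46 (standard error 0.27, adjusted p = 0.682 from edgeR). The mitochondrial chaperonin, of the same fold class but another family, consists of *HSPD1* and *HSPE1*, which had log2 fold changes of 0.41 and 0.16 without being called. *MKKS*, a chaperonin-like gene of the Bardet-Biedl syndrome complex, was at -0.59 (standard error 0.33) and was not called. *CCT6B*, the testis form of the sixth subunit, was at most 0.234 CPM in any pig and was too low to be tested.

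**Figure D4:**
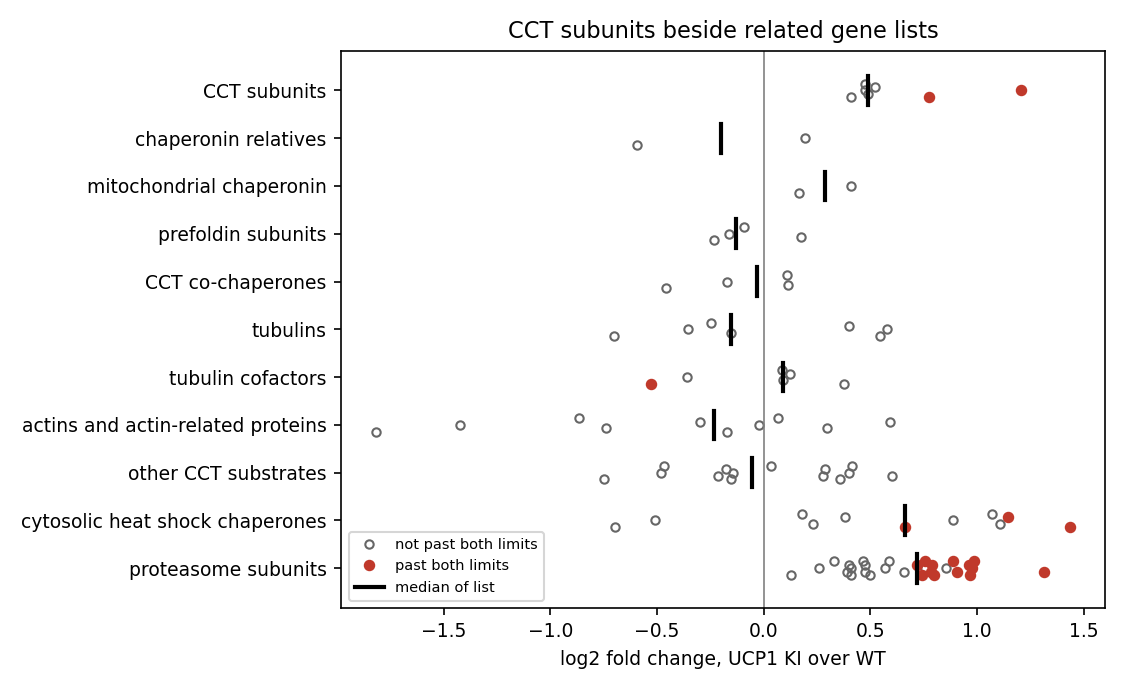
log2 fold change (x axis) of each gene tested in the CCT list and in 10 related lists, with filled red points for genes past both limits and a black bar for the median of each list. The CCT, heat shock and proteasome lists have medians of 0.49, 0.66 and 0.72, and the other lists lie between -0.24 and 0.29.

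Actins and tubulins are the main proteins that CCT folds. Of the 10 actins and actin-related genes tested, 0 were called and 3 had a log2 fold change above 0, with a median of -0.24. *ACTR1A*, a subunit of the dynactin complex, had the smallest p of them, with a log2 fold change of 0.59 (standard error 0.26) and an unadjusted p of 0.0513 from edgeR. The muscle actin *ACTA1* and the cytoplasmic actin *ACTB*, named after their values were seen because they are the main substrates, were at -0.30 and -0.02. *ACTG1*, the other cytoplasmic actin, also named after its values were seen, was lower in every KI pig, at 552, 565 and 102 CPM in KI1 to KI3 and 580, 875 and 583 CPM in WT1 to WT3. Its log2 fold change was -0.74 (standard error 0.59), and the edgeR fit gave an unadjusted p of 0.246. Of the 7 tubulins tested, 0 were called, 3 had a log2 fold change above 0 and the median was -0.16. *TUBG1*, of the microtubule organizing centre, had the smallest p at a log2 fold change of 0.40. *TUBA1B* and *TUBB*, also named after their values were seen, were at 0.58 and 0.54 with overlapping groups. The other tubulins tested lay between -0.70 for *TUBA4A* and -0.16 for *TUBB2B*, which were likewise named after their values were seen. Several tubulins and actins have near-identical copies whose reads could be split by the counting, so their values are uncertain.

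Tubulin also needs a set of folding cofactors after CCT, and 1 of the 6 tested, *TBCC*, was called. It was lower in KI pigs, at 8.54, 8.86 and 9.17 CPM against 12.2, 14.0 and 12.1 CPM in WT pigs. Its groups did not overlap, and its log2 fold change was -0.53 (standard error 0.22), with an unadjusted p of 0.0439 and an adjusted p of 0.603 from edgeR's test. *TBCE* was higher in every KI pig, at 0.38, without passing the limits. Over all genes tested, 4.34% were called lower and 7.69% were lower without overlap. Among 14 other proteins described as CCT substrates, 0 were called, 7 had a log2 fold change above 0, and *CCNE1*, a cyclin of the entry into S phase, had the smallest p at 0.60 (unadjusted p = 0.0906 from edgeR).

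The cytosolic heat shock chaperones and the proteasome were the related lists with genes called higher. Over all genes tested, 3.84% were called higher. Of 11 heat shock genes tested, 3 were called higher, 0 lower, and their median was 0.66. A log2 fold change above 0 was found in 9 of them. *DNAJB1* and *HSF2*, named after their values were seen, were at -0.70 and -0.51. *HSP90AA1* was found under no identifier by symbol. *HSP90AB1*, the constitutive form of HSP90, was at 356, 701 and 289 CPM in KI1 to KI3 and at 142, 130 and 226 CPM in WT1 to WT3, without overlap, and its log2 fold change was 1.44 (unadjusted p = 0.00883, adjusted p = 0.583 from edgeR). *BAG3*, a co-chaperone of HSP70 at the Z-disc, was at a log2 fold change of 1.15, with overlapping groups. *HSF1*, the transcription factor of the heat shock response, was at 0.66, without overlap. Their unadjusted p values from edgeR were 0.0184 and 0.0351. *HSF1* was at 73.1, 87.0 and 60.7 CPM in KI pigs and 36.7, 45.8 and 56.9 CPM in WT pigs. The order of the pigs was that of the summed CCT level. This adds nothing to the place of *HSF1* among the nearest profiles, which came from the same values. Of 29 proteasome subunits tested, 13 were called higher and 0 lower, with a median of 0.72, and those with the smallest p were *PSMD11* (1.31), *PSMD6* (0.79), *ADRM1* (0.76) and *PSMB4* (0.80).

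The order of the pigs differed between these lists. The summed proteasome level was 3574, 4698 and 6117 CPM in KI1 to KI3 and 2346, 3053 and 3769 CPM in WT1 to WT3. KI3 was highest, whereas it was the lowest KI pig for the summed CCT level, and WT3 lay above KI1, so that the groups overlapped. The summed heat shock level was 10132, 11872 and 3835 CPM in KI1 to KI3 and 4858, 4142 and 5863 CPM in WT1 to WT3. KI3 was the lowest of all 6 pigs here, and much of this sum came from *HSPB1*, a small heat shock protein named after its values were seen, at 2171 CPM in that pig and 6664 and 8096 CPM in the other KI pigs. All of these lists were compared with the same WT pigs, so their shifts share the same controls.

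**Figure D5:**
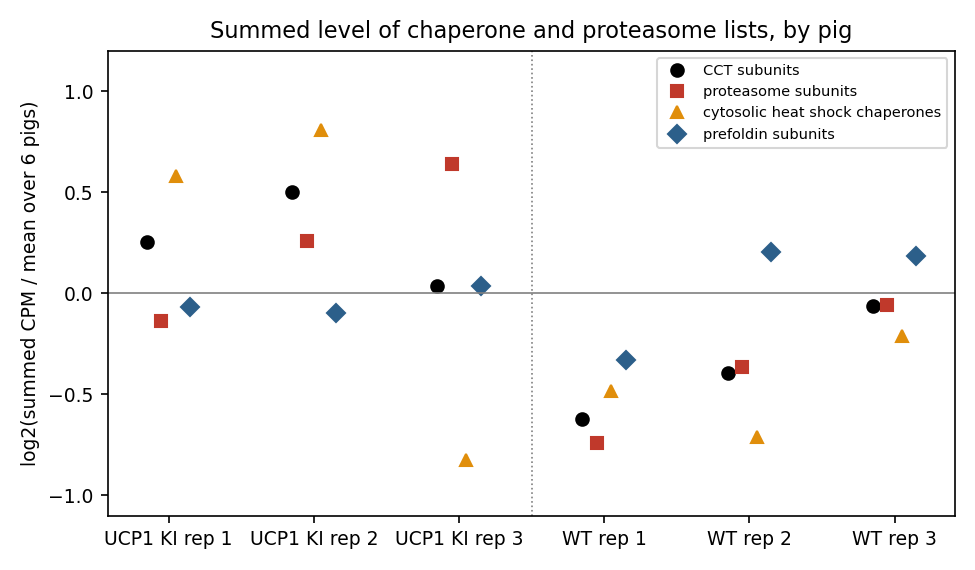
log2 ratio of the summed CPM of each list to its mean over the 6 pigs (y axis), with 1 point per list and pig. The CCT points of the 3 KI pigs lie above those of the 3 WT pigs, the proteasome is highest and the heat shock sum lowest in KI3, and the prefoldin points of the groups overlap.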

How the data were processed

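RNA-seq of longissimus dorsi from 3 UCP1 KI and 3 WT pigs was analysed, with 1 library per pig. The authors extracted RNA with TRIzol, sequenced mRNA libraries as paired ends, trimmed reads with Trimmomatic 0.36, mapped them with HISAT2 2.0 and used StringTie 1.3.3b; the build Sscrofa11.1 is named in the submitters' processing notes. The authors deposited raw counts per Ensembl gene, without normalization, and the program that counted them is not given in the sources used here. The totals per pig were 30220951 to 35066624. Over the genes tested and scaled by the TMM factors, the totals make a floor of 3 counts equal to 0.0795 to 0.110 CPM, for counting error only.

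The re-analysis used edgeR 4.0.16 under R 4.3.3, with filterByExpr, TMM scaling, condition as the only term and the two-sided quasi-likelihood F test. Calls used the numerical limits of the paper's methods, 0.05 and a log2 fold change over 0.5 in size, with the first taken as p before adjustment, and Benjamini-Hochberg adjusted p values cover all genes tested. A standard error is the size of the log2 fold change divided by the square root of F, and the 95% interval uses the fit's residual degrees of freedom plus the prior degrees of freedom of the moderated dispersion. The procedure was tested on simulated counts. Alternatives were DESeq2 1.42.0, library size only, median-of-ratios factors, no filter on low counts, a replicate block, each pig left out, no fold change limit and an adjusted limit.

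Ensembl symbols were taken from a name table that paired 14864 identifiers with one, and positions from the RefSeq annotation of Sscrofa11.1. The genes named by rule were the subunits, for each related list the called genes (at most 4, smallest p first) or otherwise the gene with the smallest p, any gene of a list of 6 or fewer, and the 10 nearest profiles. Cell type markers, chromosomal neighbours, genes not found and the genes said to be named after their values were seen were named in addition. The members and lists were chosen with earlier results of these data known.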

Additional observations from a re-analysis of the deposited data

How the results depend on the processing

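The 7 subunits were higher in KI pigs in all 77 combinations of subunit and alternative, and 66 of these kept the side of the limits. The count of subunits past both limits, 2 in the report, was 1 with median-of-ratios factors, 5 with library size only, 0 at an adjusted p under 0.05 (2 at an unadjusted p under 0.05, and 1 at an adjusted p under 0.05 with DESeq2), and between 1 and 4 with each pig left out; *CCT8* was called in each of these 6 fits. It was 4 without WT3 and 1 without KI1, KI2, WT1 or WT2. The share of all genes called was not computed with median-of-ratios factors, library size only or a pig left out. The counts under these settings therefore have no such share beside them. The count of subunits without overlap, 2 in the report, was 1 with median-of-ratios factors, 4 with library size only and 1 with the values scaled by DESeq2. It lay between 1 and 5 with a pig left out, with 5 without KI3 and without WT3. The share of all genes without overlap was not computed under these settings. Groups with fewer pigs separate more easily, so the counts with a pig left out cannot be set against the 2 with all pigs. The median log2 fold change of the subunits was 0.75 with library size only, beside 0.24 for all genes tested. It was 0.43 to 0.69 when single pigs were left out. The count of subunits whose share did not overlap, 2 in the report, lay between 2 and 4 with a pig left out, with the same limit. The related lists held 17 genes past both limits, and 28 with library size only, of which the proteasome subunits held 13 and 21. These counts with library size only also lack a share of all genes called. The cause of these changes was not tested.

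With the replicate number as a block, 1 subunit, *CCT8*, was past both limits and 1114 genes in all, against 1097 without it. Pigs of the same number had correlations of their deviations from the group means of 0.00, 0.09 and 0.28 over 13402 genes, and nothing in the labels pairs them. Shares per transcript length were not run, since lengths were not used here.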
